A study of Mus musculus with 39 samples.

Results

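The 45 genes described here encode the working parts of the lysosome other than its cathepsins: 21 soluble hydrolases with their activators and progranulin, 2 cholesterol export proteins, 7 membrane proteins and channels, 3 transcription factors of the MiT/TFE family, and 12 subunits of the proton pump that acidifies the organelle. They were chosen by symbol, and all 45 were found among the 53379 gene identifiers of the count table and passed the filter on low counts that left 22061 genes for testing. Macrophages were sorted from the brains of C57Bl/6 mouse embryos as border-associated macrophages (BAM), cells of the meninges, choroid plexus and perivascular spaces, or as microglia, the macrophages of the parenchyma. No treatment, transgene or deletion was named in the labels for any group. BAM gave 4, 3, 3, 3, 3 and 4 libraries at E10.5, E11.5, E12.5, E14.5, E16.5 and E18.5, and microglia gave 4, 3, 3, 2, 3 and 4. The labels state neither the sort gates nor whether replicates came from separate litters, so the p-values reflect no more than the spread among these samples.

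Lysosomes break down what a cell engulfs or recycles. Soluble hydrolases cut sugars, lipids and proteins in an acidic lumen, a V-type ATPase pumps protons into that lumen through a membrane sector (V0) driven by a cytosolic ATP-splitting sector (V1), and transporters carry the products out. TFEB, TFE3 and MITF bind a CLEAR element built around the E-box CACGTG in the promoters of many lysosomal genes, as known from human and mouse cells. Inherited loss of single members, such as progranulin or the heparan sulfate enzymes, is known to leave stored material in lysosomes and to cause disease of the brain.

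Libraries held 10.7 M to 47.2 M counts (median 22.4 M). Their names carry the tag R8 in 23 cases (10.7 M to 24.3 M counts) and R10 in 16 (20.6 M to 47.2 M), called series here. Since R10 took in every library of E10.5 and E11.5 but at E18.5 only 1 per population, stage changes are given within a series as well. At every stage the summed level of 10 BAM markers was higher in all BAM libraries than in all microglia libraries, and that of 10 microglia markers was lower, with E10.5 sums of 3044 to 3463 CPM (the count divided by the library total in M) in BAM and 3690 to 4895 CPM in microglia. Across all stages the 6 monocyte markers summed to 25.8 to 97.4 CPM in BAM and 49.9 to 324 CPM in microglia, and the 8 endothelial markers to 40.1 to 348 CPM in BAM and 95.3 to 204 CPM in microglia. By stage, the monocyte markers summed to 25.8 to 33.4 CPM in E18.5 BAM and 70 to 97.4 CPM in E10.5 BAM. In microglia they summed to 49.9 to 74 CPM at E18.5 and 131 to 236 CPM at E10.5. The 8 macrophage markers summed to 15156 to 21005 CPM in E18.5 BAM and 7067 to 8851 CPM in E10.5 BAM. In microglia those summed to 22666 to 25684 CPM at E18.5 and 6741 to 8541 CPM at E10.5. Sums of the other lists are also given by stage, E18.5 and E10.5. The 9 mesenchymal and mural markers summed to 202 to 709 CPM in E18.5 BAM and 6.48 to 31.5 CPM in E10.5 BAM, and to 118 to 248 CPM in E18.5 microglia and 2.48 to 20.5 CPM in E10.5 microglia. The 9 neural markers summed to 233 to 530 CPM in E18.5 BAM and 66.5 to 104 CPM in E10.5 BAM, and to 169 to 312 CPM in E18.5 microglia and 97.9 to 120 CPM in E10.5 microglia. The 10 erythroid markers summed to 209 to 310 CPM in E18.5 BAM and 76.6 to 124 CPM in E10.5 BAM, and to 207 to 309 CPM in E18.5 microglia and 54.9 to 149 CPM in E10.5 microglia. The 10 granulocyte and mast cell markers summed to 12.4 to 40.9 CPM in E18.5 BAM and 1.92 to 6.13 CPM in E10.5 BAM, and to 4.35 to 11.7 CPM in E18.5 microglia and 36.1 to 90.3 CPM in E10.5 microglia. Some sums were higher between these stages. At E12.5 and E14.5 the neural markers summed to 495 to 647 and 870 to 969 CPM in microglia. In BAM they summed to 203 to 812 and 538 to 812 CPM. The erythroid markers summed to 624 to 729 and 354 to 477 CPM in microglia at E12.5 and E14.5. In BAM they summed to 249 to 410 and 229 to 430 CPM. Of the genes of all these lists, Mcpt4 of mast cells was at 0 in every microglia library, and no other gene was at 0 in every library of a population. The part of such cells in the results was not tested.

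The promoters of several members share the motif that the MiT/TFE factors are known to bind, and 58 bases around it are shown because the level of Tfeb itself differed between the populations, as described further on. RefSeq windows on GRCm38.p6, from 250 bases before to 50 bases after the start, were present for 38 of the 45 members in 48 windows of 300 bases. The letters GTCACGTG, which contain the E-box core CACGTG, were found on either strand in the windows of 9 of the 38 members (23.7%), against 2.55% of 27025 genes. By window they were found in 9 of 48 (18.8%), against 2.25% of 32851 windows. Since the element is known from promoters of lysosomal genes, a higher share among members chosen as lysosomal is no independent result. The core was present in 11 of the 38 members (28.9%), against 8.09% of all genes, and the letters GAGGAAGT, bound by the macrophage factor PU.1, in 2 of them, Gla and Gusb (5.26%, against 3.69%). RefSeq starts can differ from those of the annotation used for counting. In the windows below the motif is in capitals, as GTCACGTG or as its reverse complement CACGTGAC, and each is written 5′ to 3′ on the strand of the gene.
Naglu, chr11:101069994-101070051, plus strand: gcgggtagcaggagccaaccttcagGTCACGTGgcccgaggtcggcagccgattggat
Sgsh, chr11:119355507-119355564, minus strand: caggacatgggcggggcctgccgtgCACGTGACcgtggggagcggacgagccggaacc
Glb1, chr9:114401003-114401060, plus strand: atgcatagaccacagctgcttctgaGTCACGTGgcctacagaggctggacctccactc
Gla, chrX:134601169-134601226, minus strand: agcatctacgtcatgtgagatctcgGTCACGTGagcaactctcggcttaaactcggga
Mcoln1, chr8:3500421-3500478, plus strand: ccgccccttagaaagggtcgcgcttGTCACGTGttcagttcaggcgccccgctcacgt
Cln3, chr7:126583327-126583384, minus strand: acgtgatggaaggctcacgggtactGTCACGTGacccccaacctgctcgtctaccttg
Lamp1, chr8:13159108-13159165, plus strand: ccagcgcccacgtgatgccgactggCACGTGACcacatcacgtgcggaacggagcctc
Atp6v0b, chr4:117887335-117887392, minus strand: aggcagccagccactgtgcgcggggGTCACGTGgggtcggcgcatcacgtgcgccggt
Atp6v0d1, chr8:105566037-105566094, minus strand: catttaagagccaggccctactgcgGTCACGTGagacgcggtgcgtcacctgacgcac
Counted from the start, the first base of the motif lay at -75 in Naglu, -29 in Sgsh, -50 in Glb1, -196 in Gla, -28 in Lamp1, -38 in Atp6v0b and -5 in Atp6v0d1. Mcoln1 held a match at -73 and another at -45. In Cln3 the match at -123 continues into a match on the other strand at -121, so both share their core. A match is a description of the letters and not a mapped binding site.

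To ask how these genes changed over development, E18.5 libraries were compared with E10.5 libraries within each population (n = 4 and 4 each), with edgeR's quasi-likelihood test and Benjamini-Hochberg adjustment over all tested genes, and genes were called at an adjusted p of at most 0.05. In BAM 30 of the 45 members rose and 5 fell, where 22.8% of all tested genes were called higher and 14.8% lower. In microglia 34 rose and 3 fell, where 20.9% of all tested genes were called higher and 14.4% lower. The median log2 fold change of the members was 0.62 in BAM and 0.90 in microglia, and that of all tested genes was 0.29 in both. Members called higher in both populations numbered 27, which is 90% of the BAM list and 79.4% of the microglia list. The same overlap over all tested genes was not counted, and most members rose in each population, so it is not read as a result of its own. Together the 45 genes took 2.54% of counts in E18.5 BAM against 1.51% in E10.5 BAM, and 3.10% in E18.5 microglia against 1.47% in E10.5 microglia. In bulk libraries a smaller share of cells using a gene and less of its RNA per cell cannot be told apart.

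**Figure D1:**
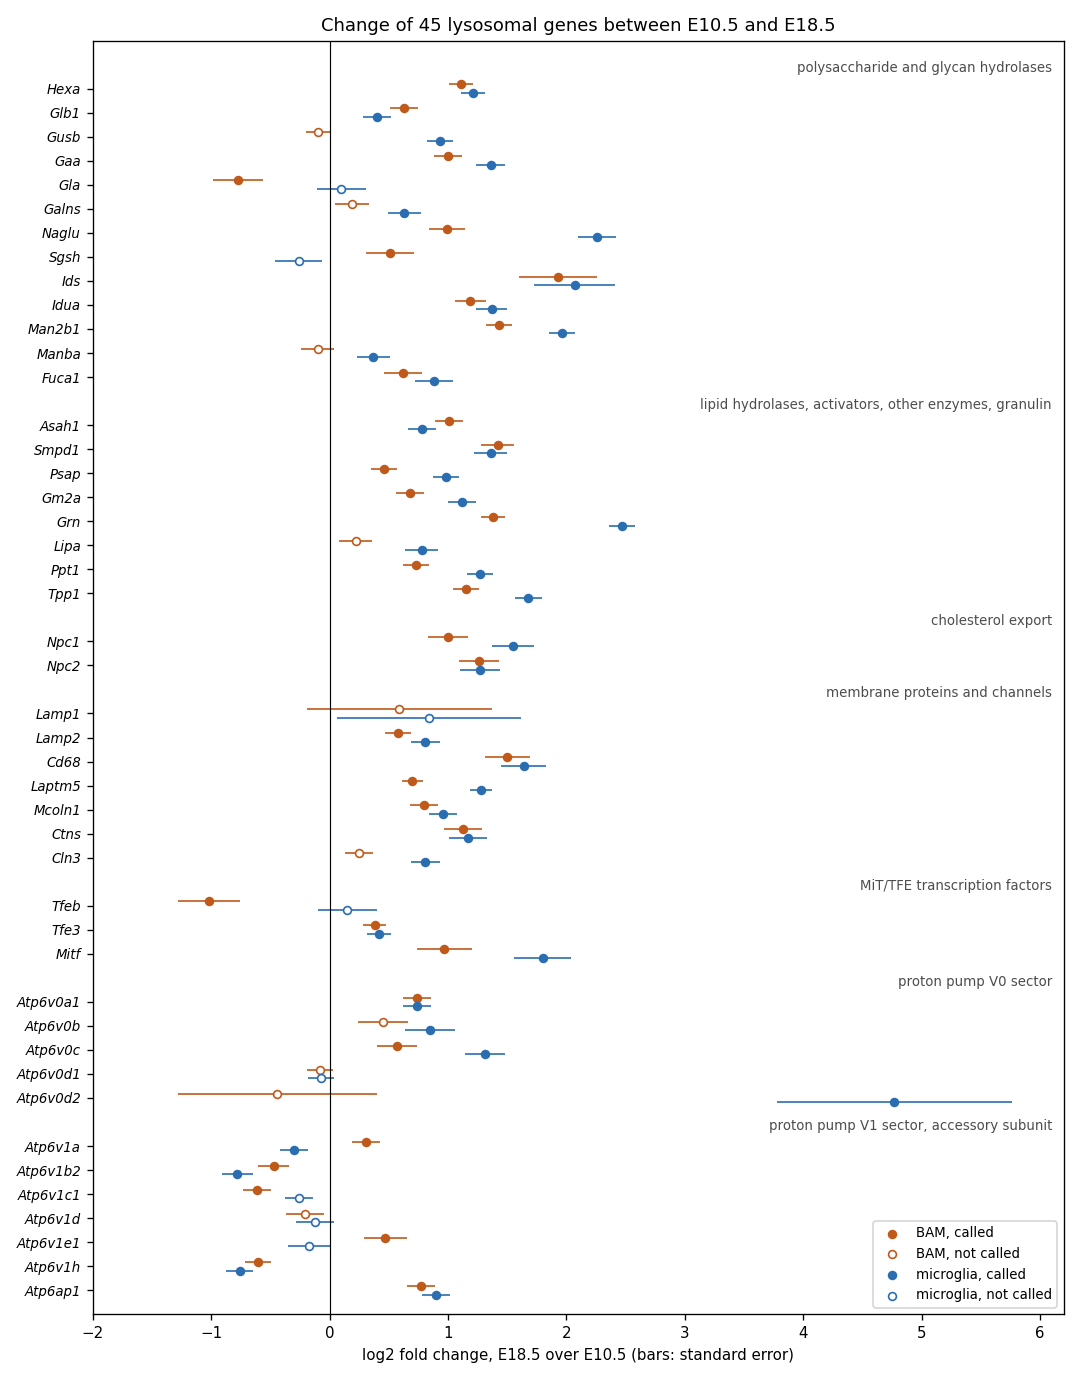
Log2 fold change of each of the 45 genes at E18.5 over E10.5 in BAM (orange, upper point) and microglia (blue, lower point), grouped by role, with bars for the standard error and filled points for called genes (n = 4 libraries per group). Of the 21 soluble hydrolases and activators, 16 were called higher in BAM and 19 in microglia, while Atp6v1b2 and Atp6v1h of the V1 sector lie below 0 in both populations.

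The sugar-cutting hydrolases rose in most cases. Of 13 such enzymes 9 rose and 1 fell in BAM, and 11 rose and none fell in microglia. Man2b1, the lysosomal alpha-mannosidase that trims glycans, had 1290, 1449, 1539 and 1552 CPM in E18.5 BAM, against 474, 498, 558 and 586 CPM in E10.5 BAM. Microglia had 1723, 1863, 1955 and 2238 CPM at E18.5, against 467, 510, 522 and 593 CPM at E10.5. The E18.5 and E10.5 libraries of either population did not overlap, and the log2 fold change was 1.43 ± 0.11 in BAM (adjusted p = 2.02e-12) and 1.96 ± 0.11 in microglia (adjusted p = 1.41e-15, errors after ± on log2 values being standard errors). Ids, which removes sulfate from iduronate in heparan and dermatan sulfate, was scarce, with 15.3, 17, 19.7 and 21.4 CPM in E18.5 BAM against 2.57, 5.29, 5.43 and 5.57 CPM in E10.5 BAM. E18.5 microglia had 14.7, 18.9, 20.5 and 21.8 CPM of Ids, against 1.54, 4.53, 6.04 and 6.59 CPM in E10.5 microglia. Every E18.5 library lay above every E10.5 library, and Ids rose by 1.93 ± 0.33 in BAM (adjusted p = 1.86e-05) and 2.07 ± 0.34 in microglia (adjusted p = 7.2e-06).

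Naglu, the alpha-N-acetylglucosaminidase of heparan sulfate breakdown, had 133, 141, 147 and 168 CPM in E18.5 BAM, against 57.6, 72.2, 77.6 and 84.5 CPM in E10.5 BAM. Microglia had 251, 264, 285 and 291 CPM at E18.5, against 44.6, 58.2, 65.7 and 68.0 CPM at E10.5. The rise was 0.99 ± 0.15 in BAM (adjusted p = 3.5e-06) and 2.26 ± 0.16 in microglia (adjusted p = 2.28e-13), without overlap in either. Sgsh itself, the sulfamidase of heparan sulfate, had 38.1, 42.7, 43.6 and 44.7 CPM in E18.5 BAM, against 23.8, 24.3, 26.5 and 41.5 CPM in E10.5 BAM. It was called in BAM at 0.51 ± 0.20 (adjusted p = 0.0381). Leaving out any one of 6 libraries ended that call, with values from 0.43 to 0.52 (adjusted p = 0.0582 to 0.119). In microglia Sgsh stood at -0.26 ± 0.20 and was not called. Sgsh shares 21.6% of its exonic bases with Card14 on the opposite strand, and the strand setting of the counting is not given in the sources used here.

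Gla, the alpha-galactosidase that degrades globotriaosylceramide, was the hydrolase that fell. It had 7.68, 13.5, 13.7 and 19.2 CPM in E18.5 BAM, against 16.3, 20.7, 23.0 and 29.7 CPM in E10.5 BAM, ranges that overlap. Its log2 fold change was -0.77 ± 0.21 in BAM (adjusted p = 0.0036) and 0.10 ± 0.21 in microglia, where it was not called. Gusb, the beta-glucuronidase, Galns, a sulfatase of keratan sulfate, and Manba, the beta-mannosidase, rose in microglia (0.93, 0.63 and 0.37) and were not called in BAM (-0.10, 0.19 and -0.10). The microglial call of Manba ended when any one of 3 libraries was left out (0.24 to 0.38).

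Among the 8 lipid hydrolases, activators and other soluble proteins, 7 rose and none fell in BAM and 8 rose in microglia. Grn encodes progranulin, a secreted and lysosomal protein cut into granulins, and it had 3500, 3578, 3606 and 3653 CPM in E18.5 BAM, against 1226, 1249, 1396 and 1527 CPM in E10.5 BAM. E18.5 microglia had 4426, 4684, 4729 and 5397 CPM, against 724, 929, 963 and 1007 CPM in E10.5 microglia. No E18.5 library overlapped an E10.5 library, and the rise was 1.38 ± 0.10 in BAM (adjusted p = 8.75e-13) and 2.47 ± 0.11 in microglia (adjusted p = 7.07e-19), or 2.61-fold and 5.55-fold. Psap, the precursor of the saposins that present sphingolipids to hydrolases, rose by 0.46 ± 0.11 in BAM and 0.98 ± 0.11 in microglia. The acid sphingomyelinase Smpd1 rose by 1.42 ± 0.14 and 1.36 ± 0.14, the peptidase Tpp1 by 1.15 ± 0.11 and 1.68 ± 0.11, and the acid ceramidase Asah1 by 1.01 ± 0.12 and 0.78 ± 0.12 in BAM and microglia. The acid lipase Lipa rose in microglia (0.78 ± 0.14) and was not called in BAM (0.22 ± 0.14).

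Both cholesterol export genes rose. Npc1, the membrane protein that takes cholesterol from the lumen, had 111, 112, 115 and 123 CPM in E18.5 BAM, against 33.4, 48.2, 67.9 and 76.7 CPM in E10.5 BAM. In microglia it had 166, 178, 188 and 218 CPM at E18.5, against 53.2, 59.1, 66.8 and 88.1 CPM at E10.5. Neither pair of groups overlapped, and the rise was 1.00 ± 0.17 in BAM and 1.55 ± 0.18 in microglia. Npc2, the soluble partner that hands cholesterol to it, rose by 1.26 ± 0.17 and 1.27 ± 0.17.

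Of the 7 membrane proteins 5 rose in BAM and 6 in microglia, and none fell. Cd68, a heavily glycosylated protein of macrophage lysosomes, had 675, 910, 1033 and 1089 CPM in E18.5 BAM, against 192, 289, 396 and 413 CPM in E10.5 BAM. The microglia held 700, 761, 785 and 828 CPM at E18.5, against 200, 244, 284 and 300 CPM at E10.5. The groups did not overlap and Cd68 rose by 1.5 ± 0.19 in BAM and 1.64 ± 0.19 in microglia. The cystine exporter Ctns (1.13 and 1.17), the calcium channel Mcoln1 (0.80 and 0.96), Lamp2, a major coat protein of the lysosomal membrane (0.58 and 0.81), and Laptm5, a membrane protein of blood cell lysosomes (0.70 and 1.28), also rose in BAM and microglia. Cln3, the membrane protein lost in juvenile Batten disease, rose in microglia (0.81 ± 0.12) and was not called in BAM (0.25 ± 0.12).

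Lamp1, the other major coat protein, could not be placed at this spread. It ranged from 110 to 2611 CPM over the BAM libraries and from 127 to 2137 CPM over the microglia libraries, and within E18.5 BAM alone it stood at 386, 710, 2456 and 2611 CPM. It was called in none of the comparisons, and its standard error at E18.5 over E10.5 was 0.78 in either population. Lamp1 shares 9.3% of its exonic bases with Grtp1 on the opposite strand.

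The proton pump did not follow the hydrolases as a block. In the V0 sector Atp6v0a1, the large membrane subunit that holds the pump together, had 473, 475, 484 and 499 CPM in E18.5 BAM, against 252, 254, 290 and 339 CPM in E10.5 BAM. Its level in microglia was 246, 254, 320 and 323 CPM at E18.5, against 164, 173, 188 and 192 CPM at E10.5. It rose by 0.74 ± 0.12 in both populations with no overlap. The proteolipid subunit Atp6v0c rose by 0.57 ± 0.17 in BAM and 1.31 ± 0.17 in microglia, and shares 27.4% of its exonic bases with another gene on the same strand. Atp6v0b rose in microglia (0.85 ± 0.21) and was not called in BAM (0.45 ± 0.21), and Atp6v0d1 was called in neither (-0.08 and -0.07).

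In the V1 sector 3 subunits fell in each population. Atp6v1b2, the nucleotide-binding B subunit of macrophages, had 536, 599, 628 and 682 CPM in E18.5 BAM, against 686, 778, 899 and 951 CPM in E10.5 BAM. In microglia it had 374, 377, 400 and 462 CPM at E18.5, against 699, 704, 715 and 778 CPM at E10.5. The groups did not overlap, and it fell by 0.47 ± 0.13 in BAM (adjusted p = 0.00346) and by 0.78 ± 0.13 in microglia (adjusted p = 6.95e-06). Atp6v1h, the regulatory H subunit, had 127, 129, 129 and 153 CPM in E18.5 BAM, against 189, 197, 198 and 220 CPM in E10.5 BAM. Its level in microglia was 85.7, 95.0, 106 and 110 CPM at E18.5, against 150, 174, 188 and 189 CPM at E10.5. It too fell without overlap, by 0.60 ± 0.11 in BAM and by 0.76 ± 0.11 in microglia.

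Atp6v1c1, the C subunit that joins the sectors, had 123, 134, 135 and 142 CPM in E18.5 BAM, against 188, 197, 198 and 216 CPM in E10.5 BAM, and fell by 0.61 ± 0.12 (adjusted p = 7.87e-05). In microglia it stood at -0.26 ± 0.12 and was not called. The catalytic A subunit Atp6v1a had 440, 443, 496 and 532 CPM in E18.5 BAM, against 341, 349, 360 and 453 CPM in E10.5 BAM, ranges that overlap through 1 E10.5 library. In microglia it had 241, 251, 262 and 265 CPM at E18.5, against 289, 317, 332 and 364 CPM at E10.5, without overlap. It was called higher in BAM (0.31 ± 0.12, adjusted p = 0.0345) and lower in microglia (-0.30 ± 0.12, adjusted p = 0.0483), and both calls were near the threshold. The BAM call ended when any one of 5 libraries was left out (0.26 to 0.31) and the microglial call with any one of 7 (-0.31 to -0.24). The stalk subunit Atp6v1e1 was called higher in BAM (0.47 ± 0.18), a call that any one of 3 libraries ended by its absence (0.34 to 0.44), and Atp6ap1, an accessory subunit of the pump, rose by 0.77 ± 0.12 in BAM and 0.90 ± 0.12 in microglia.

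**Figure D2:**
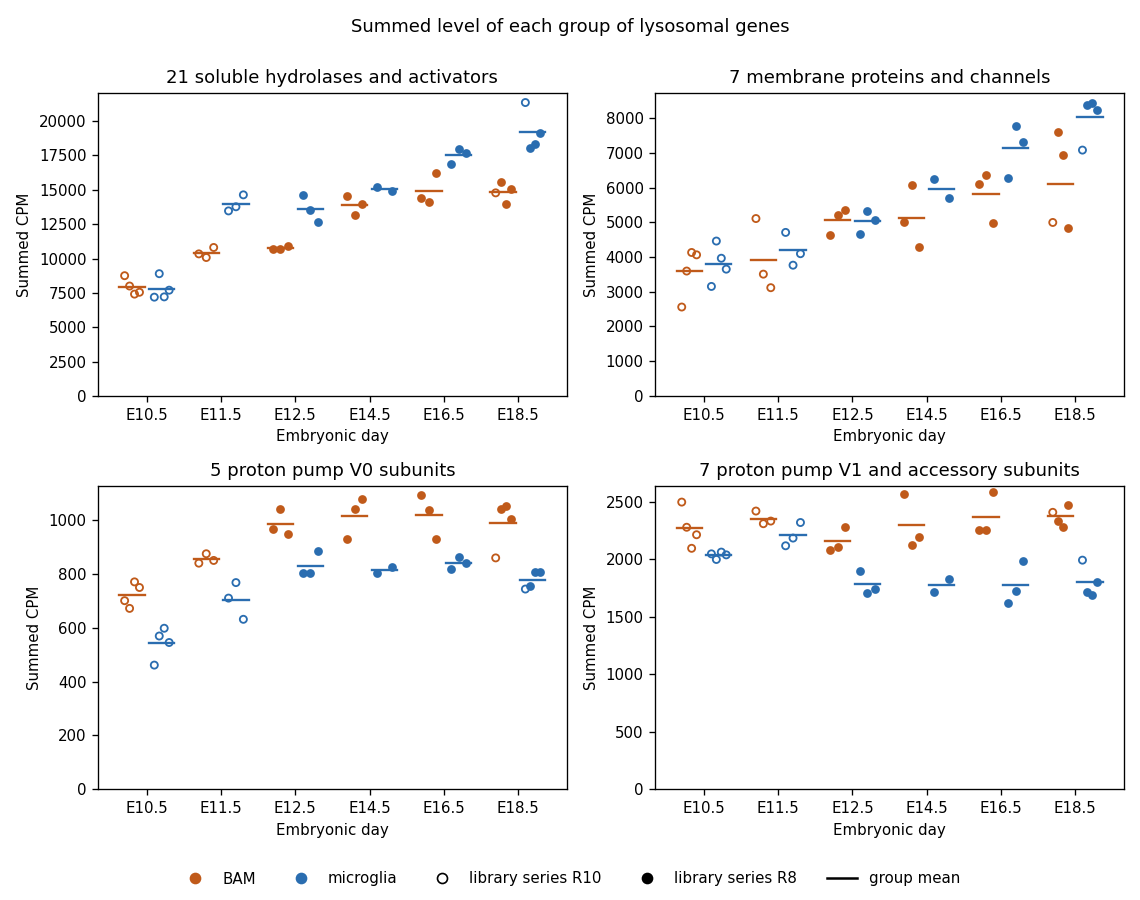
Summed CPM of the soluble hydrolases and activators, the membrane proteins, the V0 subunits and the V1 and accessory subunits in each library, by stage, with BAM left of microglia, open points for series R10, filled points for series R8 and lines for group means. The soluble hydrolases and activators, with Psap and Grn among them, summed to 13932 to 15573 CPM in E18.5 BAM and 18051 to 21348 CPM in E18.5 microglia. The V1 and accessory subunits stayed between 1620 and 2588 CPM in all 39 libraries, a sum that pools the rising Atp6ap1 with V1 subunits of which Atp6v1b2 and Atp6v1h fell.

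The summed levels show the same split by stage. The 21 soluble hydrolases and activators averaged 7925 ± 605, 10405 ± 369, 10759 ± 142, 13900 ± 695, 14913 ± 1146 and 14839 ± 688 CPM in BAM from E10.5 to E18.5 (SD, n = 4, 3, 3, 3, 3 and 4). In microglia they averaged 7747 ± 801, 13952 ± 605, 13597 ± 1014, 15067 ± 175, 17519 ± 574 and 19203 ± 1498 CPM (SD, n = 4, 3, 3, 2, 3 and 4). These sums were thus alike at E10.5 and highest at the late stages. Their largest step between neighbouring stages in microglia lay between E10.5 and E11.5, both of series R10. Psap and Grn, which encode no hydrolase, made up a large part of them. Over that step the microglia mean of Psap went from 2670 to 5235 CPM and that of Grn from 906 to 2241 CPM. The 13 sugar-cutting hydrolases alone averaged 2780, 4320 and 6458 CPM in microglia at E10.5, E11.5 and E18.5. In BAM they averaged 3048, 3720 and 5498 CPM. The 7 V1 and accessory subunits averaged 2374 ± 82.9 CPM in E18.5 BAM against 2270 ± 168 CPM in E10.5 BAM, and 1798 ± 137 CPM in E18.5 microglia against 2037 ± 27.2 CPM in E10.5 microglia (SD, n = 4 each). The accessory Atp6ap1 among them had 628 to 768 CPM in E18.5 BAM against 361 to 493 CPM in E10.5 BAM. In microglia Atp6ap1 had 632 to 805 CPM at E18.5 against 362 to 440 CPM at E10.5. The V1 subunits were not summed without it. No test was made on these sums.

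Within series R10 alone, where E18.5 is 1 library per population assumed to vary like the other groups, 18 members rose and 3 fell in BAM, where 6.44% of 21218 tested genes were called higher and 7.06% lower. In microglia 30 rose and none fell, where 6.24% were called higher and 5.61% lower. Grn rose by 1.38 in BAM and 2.70 in microglia there, Naglu by 0.98 and 2.39, and Man2b1 by 1.42 and 2.22. The rise of Ids was not called in R10 (1.66 in BAM and 1.77 in microglia), nor were the falls of Atp6v1b2 (-0.32 and -0.53) and Atp6v1h (-0.43 and -0.56). In BAM the rises of Psap (0.36), Npc1 (0.94), Npc2 (0.80), Cd68 (1.03), Glb1 (0.52), Sgsh (0.55), Fuca1 (0.46), Tfe3 (0.34), Atp6v0c (0.25), Atp6v1a (0.20) and Atp6v1e1 (0.10) were not called in R10 either. Nor in microglia were the rises of Glb1 (0.48), Manba (0.71) and Atp6v0b (0.38) and the fall of Atp6v1a (-0.26). In BAM of R10 Gla (-1.58), Tfeb (-1.90) and Atp6v1c1 (-0.61) fell.

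Within series R8 the later part of the window was compared, E18.5 against E12.5 (n = 3 and 3 each). In BAM 24 members rose and none fell, where 6.67% of tested genes were called higher and 6.47% lower. In microglia 19 rose and none fell, where 4.13% of tested genes were called higher and 3.58% lower. The members' median log2 fold change was 0.42 in BAM and 0.45 in microglia, against 0.01 and -0.03 for all tested genes. Members called higher in both numbered 17, which is 70.8% of the BAM list and 89.5% of the microglia list. Here too the overlap over all tested genes was not counted. Cd68 rose by 1.25 ± 0.13 in BAM and 0.91 ± 0.13 in microglia, Naglu by 1.22 ± 0.18 and 1.14 ± 0.18, and Ids by 1.33 ± 0.29 and 1.18 ± 0.29. The Ids call in microglia was lost without either of 2 E12.5 libraries (0.94 to 1.02). Atp6v1b2, Atp6v1h and Atp6v1c1 were not called in this window in either population.

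The change between E10.5 and E18.5 was then set between populations, as the BAM change minus the microglia change. One member, Atp6v1a, was called higher and 11 were called lower, where 3.08% of tested genes were called higher and 3.55% lower. The median over the members was -0.27, against 0.01 over all tested genes. Naglu had the largest negative value among members of average log2 CPM 2 or more, at -1.28 ± 0.22 (adjusted p = 9.91e-05), followed by Tfeb at -1.17 ± 0.36 (adjusted p = 0.0446), Grn at -1.09 ± 0.14 (adjusted p = 1.27e-06) and Gusb at -1.03 ± 0.15 (adjusted p = 7.53e-06). Laptm5 (-0.58), Cln3 (-0.55), Ppt1, a thioesterase that removes palmitate from proteins (-0.53), Man2b1, Psap and Tpp1 (each -0.52) were also called. For Atp6v1a the value was 0.61 ± 0.17 (adjusted p = 0.0186). The Tfeb call ended when any one of 10 libraries was left out (-1.21 to -0.97, adjusted p = 0.053 to 0.109). The same held for any one of 9 libraries for Cln3 (-0.56 to -0.48) and Psap (-0.52 to -0.45), and any one of 6 for Man2b1, Ppt1 and Tpp1. Without microglia E10.5 replicate 1 the calls fell to 7. Within series R10 the called members were Naglu (-1.41), Grn (-1.31), Gusb (-1.23) and Gla (-1.90), and none was higher, where 0.796% of tested genes were called higher and 0.924% lower.

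Atp6v0d2, an alternative d subunit known from osteoclasts, was named after its values were seen, since it lies below the average level of the naming rule. It had 3.48, 4.91, 5.70 and 15.3 CPM in E18.5 microglia, against 0, 0.073, 0.171 and 0.874 CPM in E10.5 microglia. BAM had 1.30, 1.37, 2.06 and 2.37 CPM at E18.5, against 0.512, 2.31, 2.82 and 3.89 CPM at E10.5. All E18.5 microglia lay above all E18.5 BAM, and the order was the other way at E10.5 except for 1 library. The contrast of changes was -5.21 ± 1.27 (adjusted p = 0.00737), and without microglia E10.5 replicate 4 it was -6.97. Without microglia E18.5 replicate 1, the library of 15.3 CPM, the contrast was -4.52 (adjusted p = 0.0267). That library is the only library of series R10 in its group.

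**Figure D3:**
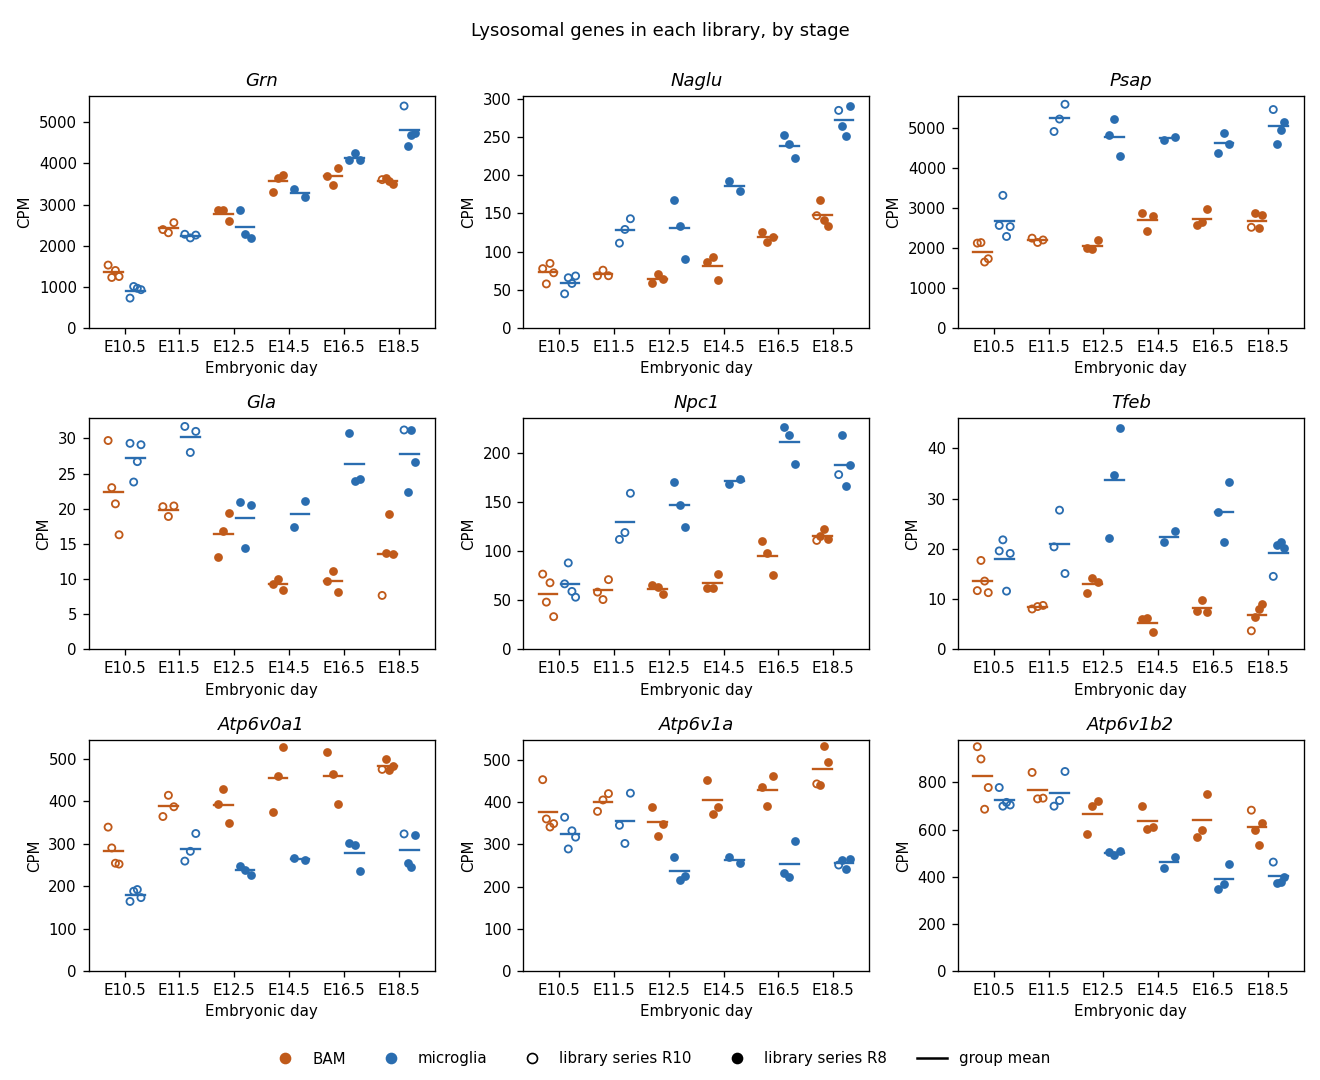
CPM of 9 members in each library by stage, with BAM (orange) left of microglia (blue), open points for series R10, filled points for series R8 and lines for group means. Grn reaches 5397 CPM in E18.5 microglia and 3653 CPM in E18.5 BAM, and Atp6v0a1 is higher in all BAM than in all microglia libraries at each of the 6 stages.

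To find members that separated the populations throughout, the difference of BAM from microglia was averaged over the 6 stages (20 and 19 libraries). In BAM 14 members were higher and 10 lower, and 21 were not called. Over all tested genes 28.2% were called in either direction, 3030 of them higher and 3199 lower. The members' median was 0.06 against -0.02 for all tested genes. Of the 12 pump subunits among the members 7 were higher in BAM and none lower, while of 10 other pump subunits of the pathway 2 were higher and 2 lower. Of the 33 other members 7 were higher and 10 lower. One of the 24 called members, Tfeb, differed at least 2-fold. Of the 22061 tested genes 884 were called higher and 1275 lower at that threshold.

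Psap was lower in BAM at every stage. It ran from 1645 to 2971 CPM with a median of 2327 CPM in BAM, and from 2283 to 5585 CPM with a median of 4763 CPM in microglia. All BAM libraries lay below all microglia libraries at each of the 6 stages, and the mean difference was -0.91 ± 0.05 (adjusted p = 8.72e-17). Laptm5 was also called lower at all 6 stages and had a mean difference of -0.65 ± 0.04 (adjusted p = 4.48e-15), with no overlap at any stage. Of the other soluble proteins Gm2a, the activator that presents ganglioside to hexosaminidase, was lower (-0.31 ± 0.05), Smpd1 (0.30 ± 0.06) and Tpp1 (0.31 ± 0.05) were higher, and Grn was not called (0.06 ± 0.05).

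Npc1 ran from 33.4 to 123 CPM with a median of 69.5 CPM in BAM, and from 53.2 to 226 CPM with a median of 166 CPM in microglia. From E11.5 to E18.5 no BAM library reached the lowest microglia library of its stage, and at E10.5 the groups overlapped. Its mean difference was -0.96 ± 0.08 (adjusted p = 2.67e-12), or 1.95-fold lower in BAM, and Npc2 was not called (-0.08 ± 0.08).

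Among the sugar-cutting hydrolases 4 were higher and 5 lower in BAM. Naglu ran from 57.6 to 168 CPM with a median of 81.0 CPM in BAM and from 44.6 to 291 CPM with a median of 167 CPM in microglia, a mean difference of -0.78 ± 0.07 (adjusted p = 3.22e-11). The groups overlapped at E10.5 and did not overlap at the other 5 stages. Gla had a median of 15 CPM (7.68 to 29.7) in BAM and 26.6 CPM (14.4 to 31.7) in microglia, at -0.77 ± 0.10, and its groups were apart at 4 stages. Sgsh had a median of 32.7 CPM (15.9 to 54.9) in BAM and 21.5 CPM (13.2 to 32.4) in microglia, at 0.53 ± 0.09, with no overlap at 3 stages. It was called at E16.5 (1.43 ± 0.23) and E18.5 (1.15 ± 0.20) and not before. Enzymes of heparan sulfate breakdown thus lay on opposite sides, with Sgsh higher and Naglu lower in BAM, while Idua, the iduronidase of the same route, was higher (0.19 ± 0.06) and Ids was not called (-0.29 ± 0.15). Galns (-0.59 ± 0.07), Gusb (-0.39 ± 0.05) and Man2b1 (-0.25 ± 0.05) were lower in BAM, and Glb1, the beta-galactosidase (0.27 ± 0.05), and Hexa, the alpha chain of hexosaminidase (0.23 ± 0.04), were higher.

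Tfeb, the factor best known as a regulator of lysosomal genes, had a median of 8.65 CPM (3.46 to 17.7) in BAM and 21.3 CPM (11.6 to 44.0) in microglia. The groups overlapped at E10.5 and were apart at the other 5 stages, and the mean difference was -1.40 ± 0.12 (adjusted p = 6.46e-12), or 2.65-fold lower in BAM. Tfeb fell in BAM to 3.71, 6.46, 8.09 and 9.05 CPM at E18.5, against 11.3, 11.7, 13.6 and 17.7 CPM at E10.5, a change of -1.02 ± 0.26 (adjusted p = 0.00199). In microglia it had 14.53, 20.2, 20.7 and 21.3 CPM at E18.5 and 11.6, 19.1, 19.6 and 21.8 CPM at E10.5, and was not called (0.15 ± 0.25). Tfe3 was higher in BAM (0.27 ± 0.05) and rose with stage in both populations (0.38 ± 0.10 in BAM and 0.42 ± 0.10 in microglia). Mitf did not differ past the threshold between populations (-0.06 ± 0.11) and rose with stage (0.97 ± 0.23 in BAM and 1.80 ± 0.24 in microglia). Within series R10 the rise of Tfe3 was called in microglia (0.61, adjusted p = 0.0413) and not in BAM (0.34, adjusted p = 0.269), and that of Mitf was called in both (1.43 in BAM and 2.15 in microglia). Within series R8, at E18.5 over E12.5, none of the 3 factors was called in either population. Of the 9 members with GTCACGTG in their promoter window, Sgsh, Glb1 and Atp6v0d1 were higher in BAM, Naglu and Gla were lower, and Mcoln1, Cln3, Lamp1 and Atp6v0b were not called. Of all 45 members 14 were higher and 10 lower, and of all tested genes 28.2% were called in either direction. A link of the motif to these calls was not tested.

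Among the 12 member pump subunits the 7 called as the mean over stages were all higher in BAM. Atp6v0a1 had a median of 404 CPM (252 to 527) in BAM and 254 CPM (164 to 324) in microglia, with no overlap at any of the 6 stages and a mean difference of 0.68 ± 0.05 (adjusted p = 1.36e-12). Atp6v0d1 also showed no overlap at any stage, at 0.31 ± 0.05, though it was called at no single stage. Atp6v1a had a median of 397 CPM (319 to 532) in BAM and 270 CPM (215 to 421) in microglia, at 0.54 ± 0.05 (adjusted p = 4.7e-10), and was apart at 4 stages. Atp6v1b2 had a median of 692 CPM (536 to 951) in BAM and 490 CPM (347 to 846) in microglia, at 0.40 ± 0.06, likewise apart at 4 stages. Atp6v1e1 had a median of 196 CPM (102 to 250) in BAM and 134 CPM (82.6 to 185) in microglia, at 0.49 ± 0.08, and Atp6v1h stood at 0.26 ± 0.05. Atp6ap1 was called at 0.15 ± 0.05 and fell short of the threshold when any one of 5 libraries was left out (0.14), while Atp6v0b, Atp6v0c, Atp6v1c1 and Atp6v1d were not called. Within series R8 alone Atp6v0c was called lower in BAM (-0.30, adjusted p = 0.0189).

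Within series R8, as the mean over E12.5 to E18.5, 18 members were higher and 11 lower in BAM, where 15.9% of tested genes were called higher and 15.8% lower. Within series R10, as the mean over E10.5, E11.5 and E18.5, 2 were higher and 9 lower, where 3.55% of tested genes were called higher and 4.58% lower, so the share called higher lay near that of all genes. The higher ones were Atp6v0a1 (0.50) and Atp6v1a (0.35). Psap (-0.88 in R8 and -1.01 in R10), Naglu (-1.0 and -0.55), Tfeb (-1.63 and -1.29), Npc1 (-1.09 and -0.73) and Gla (-0.84 and -1.02) were called lower in both series. Sgsh (0.51), Atp6v1e1 (0.34) and Atp6v1b2 (0.21) were not called in R10, and were called in R8 at 0.72, 0.65 and 0.58.

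**Figure D4:**
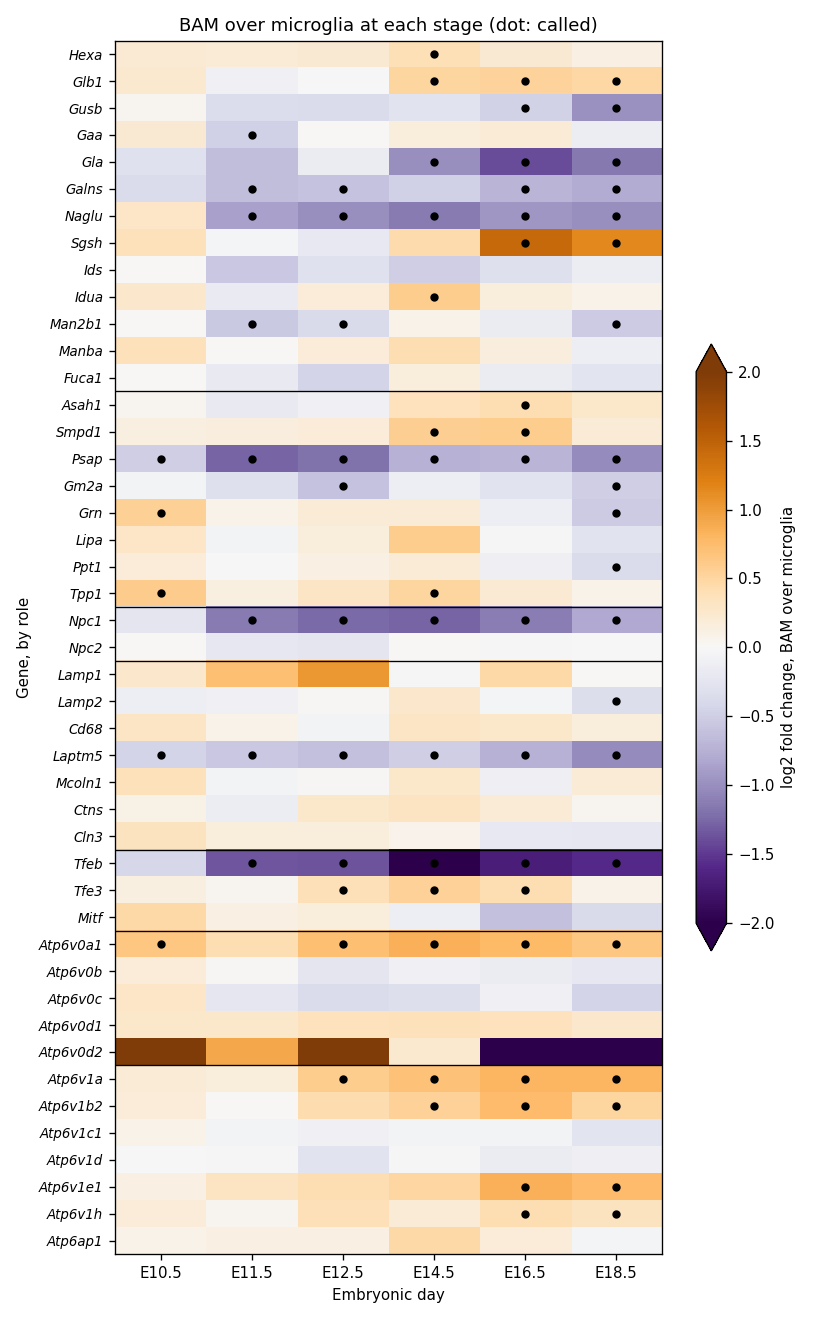
Log2 fold change of BAM over microglia for each of the 45 genes at each stage, grouped by role, with orange for higher and purple for lower in BAM, a dot for called genes and a colour scale that ends at 2 in either direction. Psap and Laptm5 carry a dot at all 6 stages, Atp6v0a1 at 5, and Atp6v0d2 passes the end of the scale without a call.

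Stage by stage the calls were fewest at E10.5 and most at E18.5, among the members and among all tested genes. At E10.5 (n = 4 and 4) 3 members were higher and 2 lower in BAM, where 2.32% of tested genes were called higher and 2.16% lower. The higher ones were Atp6v0a1 (0.65 ± 0.12), Grn (0.56 ± 0.10) and Tpp1, and the lower ones Psap (-0.50 ± 0.11) and Laptm5. At E11.5 (n = 3 and 3) none was higher and 8 were lower, where 2.84% were called higher and 3.83% lower, among them Psap (-1.28 ± 0.13), Npc1 (-1.13 ± 0.20), Tfeb (-1.35 ± 0.30) and Naglu (-0.87 ± 0.18). With the same n, E12.5 gave 3 members above and 8 below microglia, where 4.12% of tested genes were called higher and 4.42% lower, and Atp6v1a joined the higher ones (0.58 ± 0.14).

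At E14.5 (n = 3 and 2) 9 were higher and 6 lower, where 3.93% of tested genes were called higher and 3.25% lower. Without microglia E14.5 replicate 1, or without replicate 2, 1 was higher and 5 were lower, the lone microglia library then being assumed to vary like the other groups, and without BAM E14.5 replicate 1 the calls were 2 and 6. Tfeb reached its lowest value here (-2.02 ± 0.33), and Laptm5 (-0.50 ± 0.12) lost its call without microglia E14.5 replicate 1 (-0.53, adjusted p = 0.0528). The E16.5 libraries (n = 3 and 3) had 10 members higher and 8 lower in BAM, where 7.09% were called higher and 6.74% lower, and Gla stood at -1.40 ± 0.24. At E18.5 (n = 4 and 4) 7 were higher and 13 lower, where 6.7% were called higher and 8.75% lower. All 13 were outside the pump, and 5 of the 7 higher ones were pump subunits, led by Atp6v1a (0.80 ± 0.12) and Atp6v1e1 (0.76 ± 0.18). Within series R8 at E18.5 (n = 3 and 3) 7 were higher and 11 lower, where 7.66% of tested genes were called higher and 8.1% lower.

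Over the 6 stages 5 members were called lower at 5 or more of them (Psap and Laptm5 at 6, Naglu, Npc1 and Tfeb at 5), and Atp6v0a1 was called higher at 5. Grn was the one member called in both directions, higher in BAM at E10.5 and lower at E18.5 (-0.53 ± 0.10). Its mean in BAM was 1350 ± 140, 2422 ± 126, 2777 ± 147, 3561 ± 214, 3682 ± 206 and 3585 ± 64.1 CPM from E10.5 to E18.5, and in microglia 906 ± 125, 2241 ± 46.7, 2445 ± 371, 3283 ± 137, 4143 ± 102 and 4809 ± 414 CPM (SD). Grn thus had all BAM libraries above all microglia libraries at 2 stages and below them at 2 stages. Another 18 members were called at no stage. The same patterns over all tested genes were not counted, so the counts of members by number of stages are not read as a result of their own.

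Levels can be set between genes only roughly, by dividing them by the length of all annotated exons of a gene. That length can exceed the length of the transcripts present. On that scale, CPM per kilobase at E18.5, Grn (1032), Psap (974), Hexa (935), Cd68 (737) and Laptm5 (602) stood highest in BAM, and Psap (1835), Grn (1384), Laptm5 (1147), Hexa (807) and Cd68 (611) in microglia. The lowest were Atp6v0d2 (0.653 in BAM and 2.71 in microglia), Tfeb (1.20 and 3.38) and Ids (3.60 and 3.72). Of the MiT/TFE factors Tfe3 was the most abundant per length (27.1 in BAM and 23.7 in microglia), ahead of Mitf (5.34 and 6.44). In the pump the accessory subunit Atp6ap1 (236 in BAM and 225 in microglia) stood highest on this scale. Atp6v1h (13.8 and 10.2, over 9746 exonic bases) stood lowest of the V1 subunits. In CPM, Atp6v1d lay below Atp6v1h in E18.5 BAM (81.5 to 106 CPM against 127 to 153 CPM), and their ranges overlapped in E18.5 microglia.

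The rest of the pathway was followed in a list of 69 other lysosomal genes. At E18.5 over E10.5 34 rose and 6 fell in BAM, with a median of 0.46, and 42 rose and 5 fell in microglia, with a median of 0.67. Over all tested genes 22.8% were called higher and 14.8% lower in BAM, and 20.9% and 14.4% in microglia. Of the 20 other hydrolases and cofactors 16 rose in BAM and 17 in microglia, and of the 10 other pump subunits 3 and 5. As the mean over stages 22 were higher and 24 lower in BAM, where 28.2% of all tested genes were called in either direction. In the population contrast of changes 4 were higher and 17 lower, where 3.08% of all tested genes were called higher and 3.55% lower. Among the 12 genes that control the lysosome through mTORC1 and the MiT/TFE factors 8 were higher and 1 lower in BAM as the mean over stages. Among the genes with the smallest p were Hgsnat, the acetyltransferase that acts between Sgsh and Naglu in heparan sulfate breakdown (2.55 ± 0.11), the channel Mcoln2 (1.19 ± 0.07) and Atp6v0a2, an alternative large V0 subunit (-1.55 ± 0.06). The large V0 subunits thus differed in direction, with Atp6v0a1 higher and Atp6v0a2 lower in BAM.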

How the data were processed

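RNA from sorted BAM and microglia was turned into full-length cDNA libraries by a modified SMART-seq2 protocol and read in pairs, per the labels' protocols. The authors deposited counts per gene and library, made with STAR and featureCounts on GRCm38, per the submitters' processing notes; versions, strand setting and whether both mates were counted are not given in the sources used here. Even counts were in excess, with 49977 values at 2 and 21280 at 1, and 30062 at 4 and 12637 at 3. Counts carry no molecular tags. From the deposited counts, genes passing filterByExpr (22061, holding 99.973% of counts) were fitted with TMM factors (0.897 to 1.113) and 1 coefficient per group in edgeR 4.0.16 with R 4.3.3 (residual degrees of freedom 27, common coefficient of variation 55.08%), checked on simulated data. Adjusted p-values are Benjamini-Hochberg values over all tested genes. For E18.5 against E12.5 the fit held series R8 alone (20450 genes). Fits that leave out a library reused the tested genes and dispersion trend of the full fit. CPM are counts divided by the library total in M. A symbol was found for 53274 of the 53379 identifiers. Exons of 13 members overlap another gene in the count table's annotation, 4 of them by over 10% (Atp6v0c, Sgsh, Hexa and Atp6v0b). No 2 libraries of a group were alike within counting noise (46 pairs, lowest chi-square per gene 16.2), and 0 count columns were left unused. Alternatives were RLE factors, no filter, DESeq2 1.42.0, a fit of only the groups compared, a further 2-fold threshold, omission of single libraries, a block on adjacent library numbers, library series, and counts divided by 2. The members, lists and tests were chosen with earlier results of these data known. Library values are given for the called members with the largest changes each way: 5 for the mean over stages and 3 for each other contrast, at an average log2 CPM of at least 2. The other pathway genes named are the 2 with the smallest p each way, of which 1 is not reported here.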

Additional observations from a re-analysis of the deposited data

Results flagged for a closer look

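Single libraries stood apart from the other 3 of their group in 5 of 72 groups of 4 that were tested for the 18 members given library by library, and chance alone gives about 1 in 20. Among E10.5 BAM, Atp6v1a had 453 CPM in 1 library against 341 to 360 CPM in the others, Sgsh had 41.5 CPM against 23.8 to 26.5 CPM, and Ids had 2.57 CPM against 5.29 to 5.57 CPM. In E18.5 BAM Atp6v1h had 153 CPM in 1 library against 127 to 129 CPM. In E18.5 microglia Tfeb had 14.53 CPM in 1 library against 20.2 to 21.3 CPM. Each of these E18.5 libraries was the only library of series R10 in its group. A library apart and a difference between series cannot be told apart there.

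The change between E10.5 and E18.5 differed between BAM and microglia, by edgeR's test of the BAM change minus the microglia change, in 12 members. The log2 values were -1.28 for Naglu, -1.17 for Tfeb, -1.09 for Grn, -1.03 for Gusb, -0.58 for Laptm5, -0.55 for Cln3, -0.53 for Ppt1, -0.52 for Man2b1, -0.52 for Psap, -0.52 for Tpp1 and -5.21 for the scarce Atp6v0d2, and 0.61 for Atp6v1a.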

How the results depend on the processing

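Over all members and comparisons, 3543 of 3915 values kept their direction and their side of the threshold under the alternatives other than leaving out a library, 302 kept direction and lost their call, 69 gained one, and 1 turned: Atp6ap1 as the mean over stages stood at -0.02 in series R10 alone. The cause was not tested. With a 2-fold threshold added, which removes smaller changes by construction, the called members numbered 1 for the mean over stages, 0, 3, 4, 3, 4 and 5 from E10.5 to E18.5, 12 and 19 for E18.5 over E10.5 in BAM and microglia, 4 and 4 for E18.5 over E12.5, and 5 for the contrast of changes. Over all tested genes it left 884 higher and 1275 lower for the mean over stages. From E10.5 to E18.5 it left 269, 351, 428, 501, 759 and 819 higher, and 309, 525, 644, 510, 878 and 913 lower. For E18.5 over E10.5 it left 3933 higher and 1474 lower in BAM, and 3404 and 1338 in microglia. For E18.5 over E12.5 it left 784 and 388 in BAM and 365 and 316 in microglia, and for the contrast 528 and 473. At E14.5 8 members were called with no expression filter, 8 with the compared groups alone, 9 with counts divided by 2 and 9 with the block, against 15. The block fit also leaves out BAM E14.5 replicate 1, which has no adjacent library. At E10.5 DESeq2 called 8 against 5. The contrast of changes gave 6 with no filter, 6 with counts divided by 2 and 4 in series R10, against 12. In R10 alone 21 members were called in BAM at E18.5 over E10.5, against 35, and 11 for the mean over stages, against 24. Leaving out each library in turn gave 23 to 28 called members for the mean over stages, 5 to 6 at E10.5, 6 to 8 at E11.5, 8 to 11 at E12.5, 6 to 11 at E14.5, 13 to 17 at E16.5 and 18 to 20 at E18.5. For E18.5 over E10.5 it gave 32 to 35 in BAM and 35 to 37 in microglia, for E18.5 over E12.5 18 to 24 and 15 to 20, and for the contrast of changes 7 to 13. Of these 5490 values per member, 5242 kept their side, 184 lost a call and 64 gained one, and none turned. Labels share no replicate numbers. Libraries of adjacent number, each pair a BAM and a microglia library of the same stage, were tried as a replicate block. Their deviations correlated above 0 in all 19 pairs (0.000232 to 0.194, median 0.0736) and above 0.1 in 6. Whether such libraries share an origin is not stated in the labels and was not tested, and the main fits do not pair them. With that block 28 members were called for the mean over stages and 6, 9, 15, 9, 20 and 21 from E10.5 to E18.5. For the mean over stages the compared groups are all groups, so that alternative gave no other fit.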
